A study of Mus musculus with 101 samples.

Results

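The region described here is mouse chromosome 8 from 20 Mb to its end, a stretch that many of the mammary tumours of this study had lost. Its members were all genes of the deposited segmentation table that the GRCm38 RefSeq annotation places there, with 7 genes left out by name. They numbered 1425 of the 43513 gene symbols in the table, of which 32692 could be placed on the genome. The members comprised 852 protein-coding genes, 219 long non-coding RNA genes, 246 pseudogenes, 50 microRNA genes, 30 small nucleolar and 21 small nuclear RNA genes and 7 transcribed pseudogenes. The region was chosen by its values in these same tumours, namely the loss calls and segment values of its genes, so how often and how deeply it was lost is given below as a description, with no test.

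Low-coverage sequencing of genomic DNA had measured copy number in 3 spleens and in 98 tumours of the mammary gland. These belonged to 4 mouse models, named in the labels KP (18 tumours), KB1P (31), KB2P (25) and KB1(L1363P)P (24). By the usual naming of these conditional models, KP tumours lack Trp53, KB1P tumours lack Brca1 and Trp53, KB2P tumours lack Brca2 and Trp53, and KB1(L1363P)P tumours carry a missense variant in the coiled-coil domain of Brca1 and lack Trp53. All 4 models therefore share the loss of Trp53. The labels name no promoter or Cre line and do not say whether each tumour came from a different mouse, and some KB1(L1363P)P and KP titles number a second tumour beside a first, so p-values below measure only the spread between these tumours. Histology was labelled as adenocarcinoma, carcinosarcoma or sarcomatoid tumour. KP held 6, 2 and 10 of these, KB1P 29, 1 and 1, KB2P 25 adenocarcinomas only, and KB1(L1363P)P 3, 9 and 12. The labelled epithelial share was 100% in the adenocarcinomas.

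Loss of a chromosome segment removes 1 copy of every gene on it at once, and the stretch that all losses of a set of tumours share is called the minimal region. Brca1 and Brca2 act in homologous recombination, the accurate repair of DNA double-strand breaks, and Trp53 stops the division of cells with damaged DNA; tumours without them gain and lose many chromosome segments. Genes of mouse chromosome 8 have human counterparts on several chromosomes, among them the short arm of chromosome 8, which is often amplified near its centromere in breast cancer, and the long arm of chromosome 16, which is often lost.

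The promoters of 3 genes are shown because they mark the places where the losses overlapped most or went deepest. Irx3, a homeobox transcription factor of the Iroquois family, lay in the stretch lost in the most tumours. Tox3, a nuclear protein of the high-mobility-group box family, opened the minimal region of the KB2P tumours. Cyld, a deubiquitinase that restrains NF-kappaB signalling, lay in the deepest losses. Each sequence runs from 250 bases before to 50 bases after a gene start in RefSeq's GRCm38.p6 annotation, at chr8:91801605-91801904 on the minus strand for Irx3, chr8:90348203-90348502 on the minus strand for Tox3 and chr8:88696778-88697077 on the plus strand for Cyld. Capitals mark the GC box GGGCGG and its reverse complement CCGCCC, counted with overlaps.
Irx3: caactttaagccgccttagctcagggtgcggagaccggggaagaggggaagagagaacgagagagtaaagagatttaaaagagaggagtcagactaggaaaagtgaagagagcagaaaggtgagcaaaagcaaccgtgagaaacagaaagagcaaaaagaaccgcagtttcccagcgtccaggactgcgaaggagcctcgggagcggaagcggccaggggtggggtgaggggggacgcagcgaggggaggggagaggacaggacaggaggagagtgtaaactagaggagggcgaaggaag
Tox3: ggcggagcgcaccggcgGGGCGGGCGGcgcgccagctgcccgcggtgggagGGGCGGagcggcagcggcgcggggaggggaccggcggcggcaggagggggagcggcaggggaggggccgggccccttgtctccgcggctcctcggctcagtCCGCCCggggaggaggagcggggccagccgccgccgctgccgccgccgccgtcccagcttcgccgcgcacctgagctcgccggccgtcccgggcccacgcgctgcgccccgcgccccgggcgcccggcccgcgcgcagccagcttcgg
Cyld: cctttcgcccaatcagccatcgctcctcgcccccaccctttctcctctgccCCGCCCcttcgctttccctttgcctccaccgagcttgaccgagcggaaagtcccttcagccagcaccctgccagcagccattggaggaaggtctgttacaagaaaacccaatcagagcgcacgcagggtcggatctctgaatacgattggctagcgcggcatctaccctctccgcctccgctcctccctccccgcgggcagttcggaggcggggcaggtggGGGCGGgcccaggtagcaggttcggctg
The Irx3 window held 0 such matches at 56% G and C, the Tox3 window 4 at 85.3% and the Cyld window 2 at 64.7%. At least 1 match was found in 35.7% of all 32851 promoters of this length, and in 430 of the 881 promoters of members (48.8%; 747 members had a promoter in the table). These matches describe the letters only.

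Of the 50 microRNA genes in the region, 41 had a mature sequence in the RefSeq table. The 6 shown here are from genes with the highest loss count among them; they were chosen after their values were seen. The seed, bases 2 to 8, is in capitals.
mmu-miR-181c-5p: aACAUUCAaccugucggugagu
mmu-miR-181d-5p: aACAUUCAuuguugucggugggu
mmu-miR-23a-3p: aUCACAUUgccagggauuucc
mmu-miR-27a-3p: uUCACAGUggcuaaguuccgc
mmu-miR-24-3p: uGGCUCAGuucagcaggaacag
mmu-miR-8110: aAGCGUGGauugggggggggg
The miR-181c and miR-181d sequences share the seed ACAUUCA, as 2 members of the miR-181 family, at 84.2 Mb. The genes of miR-23a, miR-27a and miR-24 form a single cluster beside them, also at 84.2 Mb. These 5 genes were called lost in 33 of the 54 KB1P and KB2P adenocarcinomas, 18 of 29 and 15 of 25. Mir8110 was called lost in the same number, 33, and alone of the 6 lay inside a deep loss, in 3 tumours. Loss counts of all 50 microRNA genes ran from 10 to 33, with a median of 30.

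Per tumour, a gene had a log2 ratio of read depth, the value of the segment it lay on, and a whole-number copy call. A segment value of 0 stands for the reference level, and a loss of 1 of 2 copies in every cell of a diploid sample would give -1. In 99.9919% of values the copy call was the copy number that the segment value implies against 2 neutral copies, rounded to a whole number, so a gene was called lost at a segment value of about -0.42 or lower and gained at about 0.32 or higher. Members on the same segment carried the same value, and a count of members therefore measures length and not independent genes. The spleens carried no loss call on a member, and their segment values stayed within 0.0016 of 0. The noise between log2 ratios of neighbouring genes on the chromosome ran from 0.042 to 0.115 over the libraries, with a median of 0.055; read depth is unknown.

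By the deposited copy calls, the region was lost in part or whole in most KB1P and KB2P adenocarcinomas. At least 10% of its members were called lost in 18 of 29 KB1P adenocarcinomas, 62.1% of tumours (exact Clopper-Pearson 95% interval 42.3 to 79.3%), and in 17 of 25 KB2P adenocarcinomas, 68% (46.5 to 85.1%). The same held for 1 of 6 KP adenocarcinomas (16.7%, 0.421 to 64.1%) and 2 of 3 KB1(L1363P)P adenocarcinomas (66.7%, 9.43 to 99.2%). These intervals cover sampling of tumours only, and those of the 4 models overlap. The counts turn on the level called a loss. At a segment value of -0.2 or lower, 20 of 29 KB1P (69.0%), 19 of 25 KB2P (76%) and 3 of 6 KP adenocarcinomas (50%) had at least 10% of the members lost, and the mean share lost in KP was 42.4%. Of these, KP replicate 2 was at -0.200175 at its lowest and KP replicate 4 at -0.200858 at its highest, close to that level. At -0.3 or lower the counts were 19 of 29 KB1P (65.5%), 18 of 25 KB2P (72%) and 1 of 6 KP adenocarcinomas (16.7%). The mean share lost in KP was then 13.8%. At -0.6 or lower only 7 of 29 KB1P (24.1%) and 8 of 25 KB2P adenocarcinomas (32%) did. The share of members lost per tumour ran from 0 to 100% in both large groups, with a median of 53.9% and a mean of 48.4% ± 41.9 (SD, n = 29) in KB1P and a median of 50.9% and a mean of 49.7% ± 39.6 (SD, n = 25) in KB2P. By the copy calls it was 0% in 5 of 6 KP adenocarcinomas and 82.5% in KP replicate 7, and it was 0% in KB1(L1363P)P replicate 21, 99.2% in replicate 7 and 99.6% in replicate 19. Of the 29 KB1P tumours, 6 had at least 90% of the members lost, 12 between 10% and 90%, and 11 under 10%; of the 25 KB2P tumours, 6, 11 and 8.

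**Figure D1:**
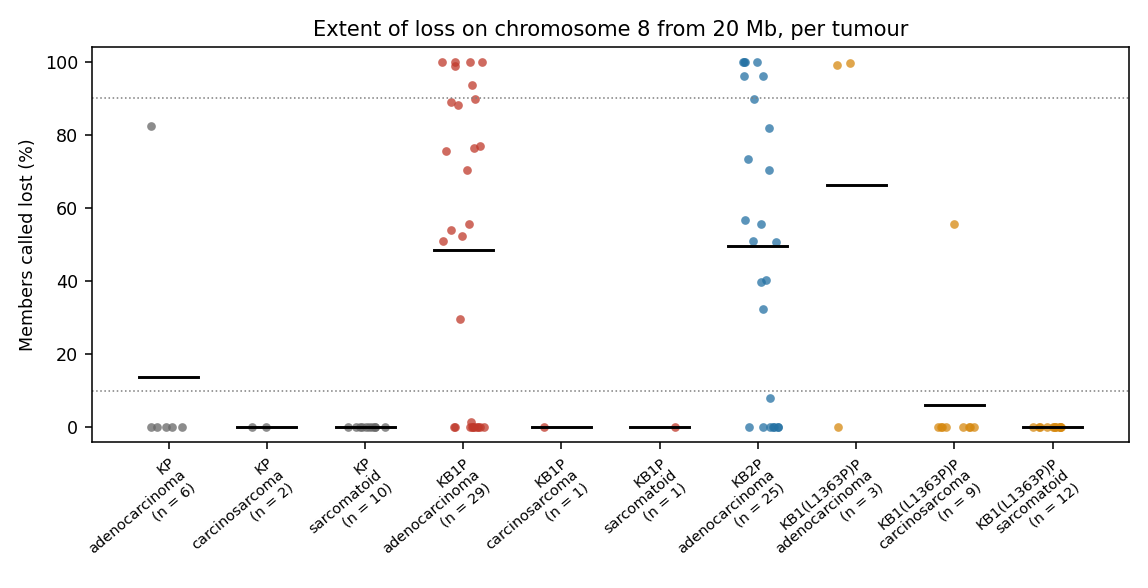
Share of the 1425 members called lost (%, vertical axis) in each of the 98 tumours (points), by model and histology; black bars are group means and dotted lines mark 10% and 90%. Adenocarcinomas of KB1P and KB2P spread from 0 to 100%, and the sarcomatoid tumours lie at 0%.

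In tumours outside the adenocarcinomas the region was almost never called lost. None of the 10 KP sarcomatoid tumours (upper 95% bound 30.8%), the 12 KB1(L1363P)P sarcomatoid tumours (26.5%), the 2 KP carcinosarcomas and the KB1P carcinosarcoma and sarcomatoid tumour had 10% of the members lost. Among 9 KB1(L1363P)P carcinosarcomas, replicate 17 alone did, with 55.6% of the members lost; its labelled epithelial share was 95%, against 2 to 98% in the other 8. Sarcomatoid tumours carried few loss calls anywhere: over the other autosomes, the share of genes lost was 0% in each KP sarcomatoid tumour and averaged 0.529% in those of KB1(L1363P)P, against 18.1% in KB1P, 17.1% in KB2P, 17.4% in KB1(L1363P)P and 11.2% in KP adenocarcinomas. The lowest mean of any other autosome ran from -0.31 to -0.01 in KP and from -0.52 to -0.13 in KB1(L1363P)P sarcomatoid tumours, so few reached the level of a call.

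Set against the other autosomes taken whole, the region stood first for loss in both large groups. Averaged over tumours, 48.4% of it was lost in KB1P adenocarcinomas, ahead of chromosomes 12 (41.6%) and 14 (37.8%), and 49.7% in KB2P, ahead of chromosomes 13 (39.4%) and 12 (37.6%). In the 3 KB1(L1363P)P adenocarcinomas it came second at 66.3%, behind chromosome 12 at 70.3%. In KP adenocarcinomas it was eighth at 13.8%, with chromosome 12 at 75.3%. This comparison is uneven, since the often gained start of chromosome 8 was left off. With chromosome 8 also taken whole, 43.5% of it was lost in KB1P, 45.0% in KB2P, 62.1% in KB1(L1363P)P and 12.0% in KP adenocarcinomas, and the ranks were again 1, 1, 2 and 8 of 19. These ranks are descriptions, and the region was picked for its loss.

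The number that opens a library's description divides the models unevenly. The 10 KP sarcomatoid tumours all carry the prefix 5750, and every KB2P tumour carries 3196 or 3499, prefixes that no other model has, so prefix and model cannot be told apart there. Within KB1P adenocarcinomas, 4 of 8 tumours with prefix 5289, 4 of 8 with 2766 and 9 of 11 without a prefix had at least 10% of the region lost. Tumours titled KB1PM had it in 4 of 10 cases and the other KB1P adenocarcinomas in 14 of 19; the labels do not explain the title. Among KB2P tumours the counts were 14 of 20 with prefix 3196 and 3 of 5 with 3499. Within prefix 5289, which holds adenocarcinomas of KP, KB1P and KB1(L1363P)P, the counts were 0 of 2, 4 of 8 and 2 of 2.

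Loss took the whole region in some tumours and its distal part in others. KB1P replicates 3 and 6 and KB2P replicates 17 and 19 had no step over 0.1 in the region and lost it at one level with the start of the chromosome, at -0.94, -0.48, -0.64 and -0.77. A lost stretch, of any length, included the last member, Gm32856, in 16 of 18 KB1P, 15 of 17 KB2P, 2 of 2 KB1(L1363P)P and 1 of 1 KP adenocarcinomas and in the single carcinosarcoma. Among tumours with partial loss this held in 10 of 12 KB1P and 9 of 11 KB2P tumours. The exceptions were KB1P replicate 20, lost from 62.8 to 113.7 Mb, KB1P replicate 29, with its longest loss from 73.7 to 93.8 Mb, KB2P replicate 11, lost from 25.5 to 92.4 Mb, and KB2P replicate 21, lost in 5 separate stretches. In KB1P replicates 16 and 19 the last member lay in a separate short loss. Before it, 204 members at 110.1 to 123.5 Mb and 285 members at 109.1 to 128.5 Mb, respectively, were not called lost.

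The depth of loss was mostly below that of 1 of 2 copies in all cells. Over the lost members, the median segment value per tumour ran from -0.94 to -0.42 in KB1P, with a median of -0.50 over tumours, and from -0.90 to -0.42 in KB2P, with a median of -0.60. It was -0.78 in KP replicate 7, -0.77 and -0.86 in the KB1(L1363P)P adenocarcinomas and -0.89 in the carcinosarcoma. The mean segment value over all members was -0.22 ± 0.32 (SD, n = 29) in KB1P, -0.28 ± 0.30 (SD, n = 25) in KB2P, -0.14 ± 0.26 (SD, n = 6) in KP and -0.55 ± 0.44 (SD, n = 3) in KB1(L1363P)P adenocarcinomas. Some tumours sat at the threshold of a call: KB1P replicate 12, at -0.42, was called lost over 89.8% of the members, while KB1P replicate 27 had a single called stretch, from 97.2 to 103.3 Mb at -0.53, covering 1.47%.

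**Figure D2:**
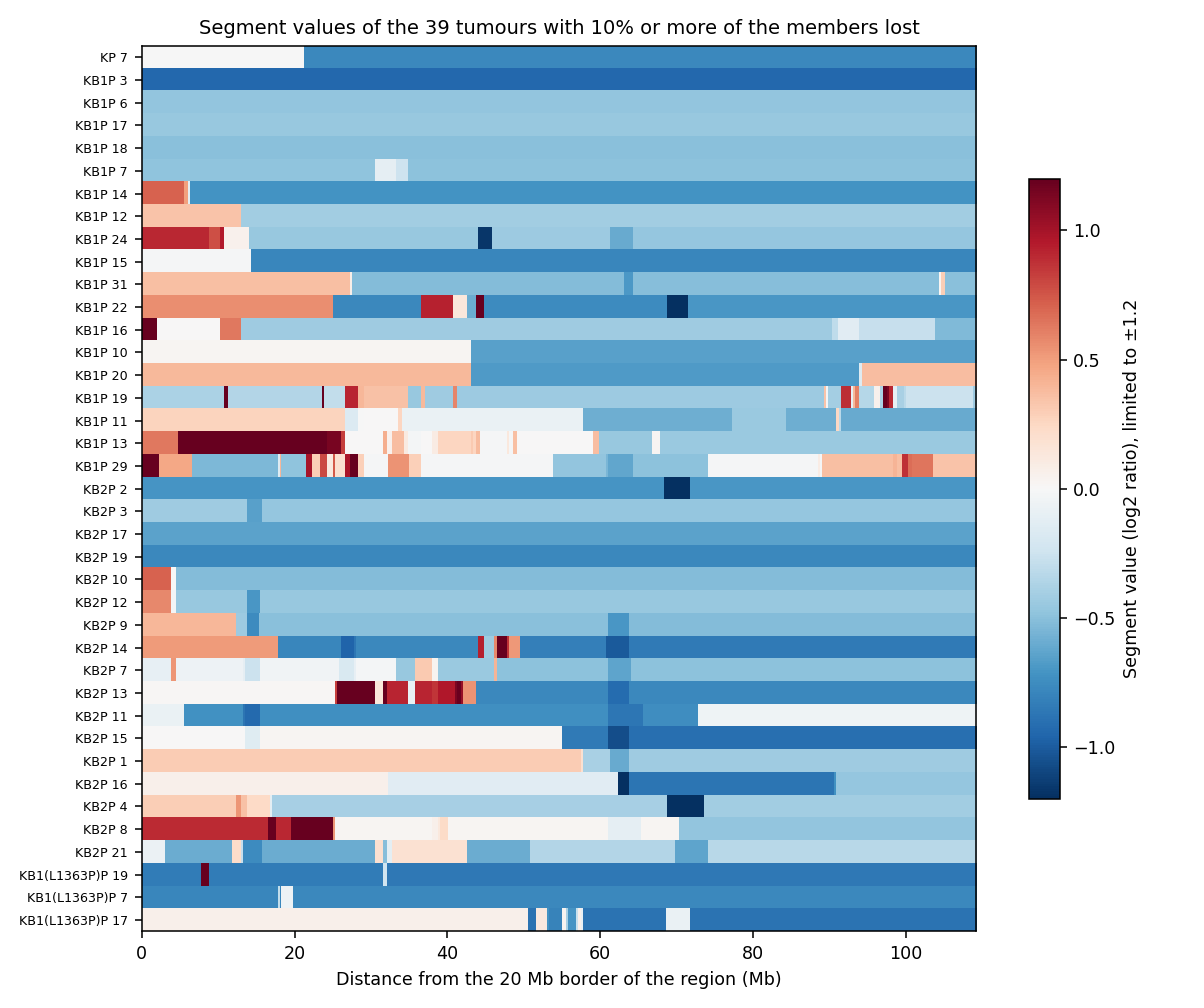
Segment values (log2 ratio, colour, blue for low) along the region for the 39 tumours with 10% or more of the members lost, 1 row per tumour, ordered by model and share lost; the horizontal axis is the distance in Mb from the 20 Mb border. Red blocks at the left, in tumours that are blue further right, are gains of the first part of the region.

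Loss was least frequent at the start of the region, where gain was most frequent. Shares below are medians over the members of a 5 Mb bin. At 20 to 25 Mb, 17.2% of KB1P and 16% of KB2P adenocarcinomas were called lost, and 34.5% and 32% were called gained. In KB1P the share lost climbed to 37.9% at 35 to 55 Mb and 62.1% at 80 to 95 Mb, then fell back to 48.3% at 115 to 125 Mb. In KB2P it was 40% at 40 to 55 Mb, reached 64% at 90 to 95 Mb and stayed at 60% from there to the end. Calls of gain fell to 0% of KB1P tumours at 90 to 110 Mb and to 0% of KB2P tumours at 80 to 110 Mb. Over single members, the count of tumours lost ran from 5 to 18 with a median of 15 in KB1P, and from 4 to 17 with a median of 14 in KB2P; over both, it ran from 9 to 35 of 54 with a median of 29.

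**Figure D3:**
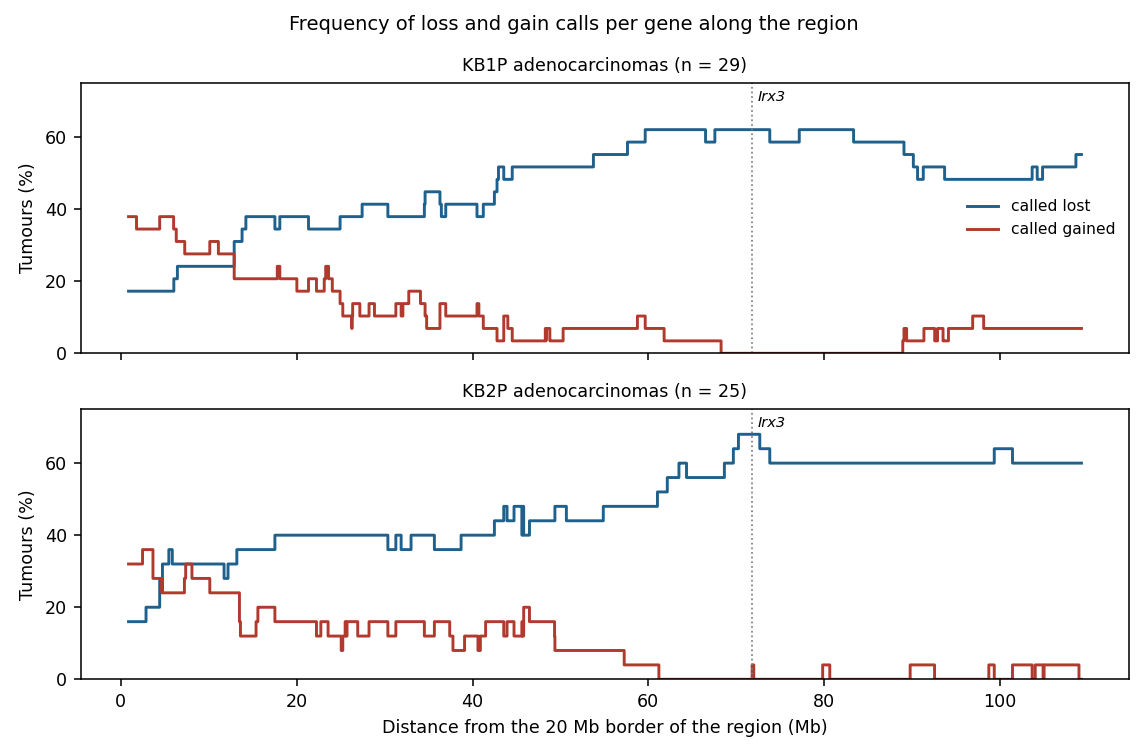
Share of tumours (%, vertical axis) with a call of loss (blue) or gain (red) at each member, against its distance in Mb from the 20 Mb border, for 29 KB1P and 25 KB2P adenocarcinomas; the dotted line marks Irx3. Loss rises from 17.2% and 16% near the border to 62.1% and 68% at Irx3 while gains fall to 0%.

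The border at 20 Mb cut through this gradient. Defb8, a beta-defensin gene and the last gene outside, was lost in 6 and gained in 11 of 29 KB1P adenocarcinomas and lost in 4 and gained in 7 of 25 KB2P adenocarcinomas. Gm20945, the first member, was lost in 5 and gained in 11 KB1P and lost in 4 and gained in 8 KB2P tumours. At the other end, Gm32856 was lost in 16 and gained in 2 KB1P and lost in 15 and gained in 0 KB2P tumours.

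Gain before 20 Mb stood beside loss after it in some tumours, more of them KB1P than KB2P. At least 50% of the genes before 20 Mb were called gained in 8 of the 18 KB1P tumours with loss, in 2 of 17 KB2P tumours and in KP replicate 7. The same gain was found without loss of the region in 3 of 11 KB1P and 3 of 8 KB2P adenocarcinomas. In the tumours with loss, those genes were called lost in 3, 3 and 0 of these and in 1 KB1(L1363P)P adenocarcinoma, and neither in 7 KB1P, 12 KB2P and 1 KB1(L1363P)P tumour. KP replicate 7 was the extreme case: its mean segment value was 1.83 before 20 Mb and -0.64 in the region, with loss from 41.2 Mb to the end. KB1P replicates 16, 14 and 24 had means of 1.44, 1.16 and 1.11 before 20 Mb and of -0.35, -0.63 and -0.34 after it.

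**Figure D4:**
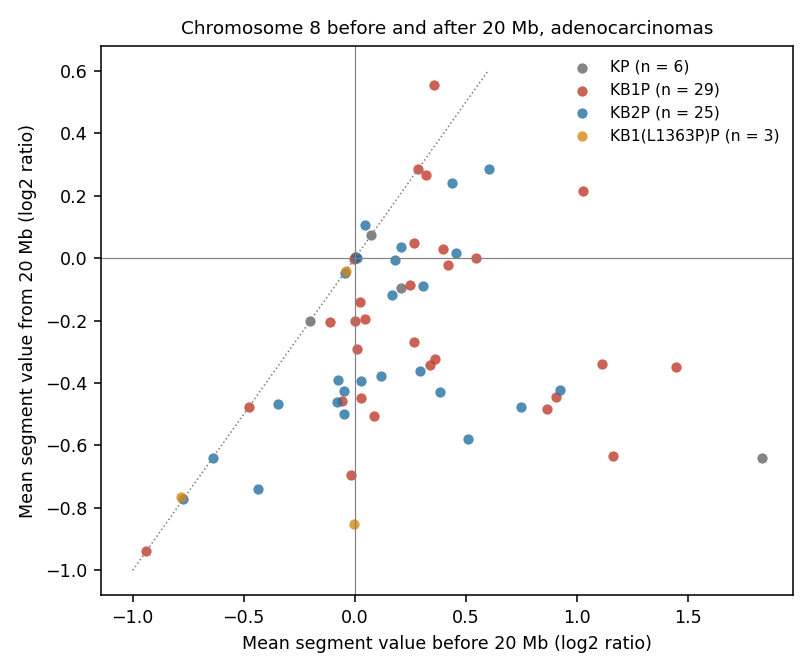
Mean segment value of the region (log2 ratio, vertical axis) against that of the genes before 20 Mb (log2 ratio, horizontal axis), 1 point per adenocarcinoma, coloured by model; the dotted line marks equal values. Points below the line had a lower level in the region than before it, and KP replicate 7 lies farthest right, at 1.83 and -0.64.

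The losses of all tumours overlapped at the Iroquois genes Irx3 and Irx5. The 12 members from Gm9619 to Irx5 (chr8:91688172-92361456) were called lost in 39 of 98 tumours, which were all tumours with at least 10% of the region lost and all 25 with partial loss. The stretch holds 2 protein-coding genes, Irx3 and Irx5. With those 39 tumours set aside, only KB1P replicate 27 and KB2P replicate 25 carried any loss call, over 1.47% and 7.93% of the members. A second region shared by 3 or more tumours was therefore not possible. The edges of the stretch were set by single tumours: KB1(L1363P)P replicate 17, whose loss resumed at 91.7 Mb, and KB2P replicate 11, whose loss ended at 92.4 Mb. Without the former the stretch widened to the 24 members from Tox3 to Irx5, and without the latter to the 32 members from Gm9619 to Gm30606.

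By model, the minimal regions were wider. In KB2P, 17 of 25 adenocarcinomas shared the 24 members from Tox3 to Irx5 (chr8:90247110-92361456), 7 of them protein-coding, as did 35 of 54 KB1P and KB2P adenocarcinomas together; KB2P replicate 8, whose loss began at 90.2 Mb, set the near edge. In KB1P, 18 of 29 adenocarcinomas shared 3 stretches. They ran from Otud4 to Gm24490 (chr8:79639676-86292598, 140 members), from 4933402J07Rik to Gm30606 (chr8:87563907-93751706, 63 members) and from Gm5131 to Gm32531 (chr8:97163794-103276608, 21 members). The KP and KB1(L1363P)P sets, with 1 and 2 tumours lost, left 1176 and up to 1087 members in a stretch and narrowed nothing.

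Irx3 values spread widely in each model. In the 29 KB1P adenocarcinomas the segment value of Irx3 ran from -0.94 to 0.32 with a median of -0.45 and a mean of -0.36 ± 0.33 (SD). In the 25 KB2P adenocarcinomas it ran from -2.07 to 0.25 with a median of -0.49 and a mean of -0.51 ± 0.46 (SD). The 6 KP adenocarcinomas ran from -0.78 to 0.08 with a median of -0.10. The KP values lay inside the KB1P range, and KB2P values alone went below -0.94. Irx5, a second Iroquois factor, had the same call in all of these tumours, lost in 18 of 29, 17 of 25 and 1 of 6.

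Where the peak lay depended on the level asked for. At a segment value of -0.2 or lower, Irx3 counted 45 of 98 tumours, and the highest count, 46 of 98 and 40 of 54 KB1P and KB2P adenocarcinomas, was at 7 members in 2 runs between Scoc and D830024N08Rik, at 83.4 to 83.6 Mb. At -0.6 or lower, Irx3 counted 20 tumours, and the highest count, 24 of 98 and 20 of 54, was at the 20 members from Gm31545 to Dnajb1, at 82.8 to 83.6 Mb. Dnajb1 encodes a co-chaperone of heat-shock protein 70 and Scoc a coiled-coil protein of autophagy. The single peak at Irx3 and Irx5 is thus that of the deposited calls. Both other peaks lie between Gm4891 and Dnajb1, at 80.9 to 83.6 Mb, where some tumours carried a narrow step down, described below. There KB1P replicate 23 was at -0.23, against 0.003 and 0.01 beside it. KB1P replicate 29 was at -0.62, against -0.47 and -0.49. How far this step moved the peaks was not tested.

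At a pair of places 3 tumours each were at -1 or lower, far below their surroundings at the first. At the 18 members from Nod2 to Rpgrip1l (chr8:88647315-91313291), KB1P replicate 22 reached -2.72, KB2P replicate 2 reached -2.41 and KB2P replicate 4 reached -2.07. The copy call of Cyld was 0 in all 3 tumours. The 7 protein-coding genes were Nod2, a cytosolic sensor of bacterial cell wall fragments; Cyld; Sall1, a zinc-finger transcription factor; Tox3; Chd9, a chromatin remodeller; Aktip; and Rpgrip1l, a protein of the base of the cilium. The deep stretch ran from 88.5 to 91.3 Mb in KB1P replicate 22, from 88.1 to 91.7 Mb in KB2P replicate 2 and from 88.6 to 93.2 Mb in KB2P replicate 4, where Nod2, at its edge, was at -1.23. The values beside these stretches were -0.75 before and -0.95 after in KB1P replicate 22, -0.71 and -0.70 in KB2P replicate 2, and -0.40 and -0.42 in KB2P replicate 4. The deep stretch thus lay inside a shallower loss in the former pair, while the near side of KB2P replicate 4 was just short of a loss call.

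Against them, KB1(L1363P)P replicate 17, the carcinosarcoma, kept much of the same stretch. Its segment value was -0.08 from Brd7 to 4831440D22Rik, at 88.3 to 91.7 Mb, including Cyld and Nod2, inside a loss at -0.89 on the far side. Cyld and Nod2 were called lost in 36 of 98 tumours, against 39 for Irx3; the 3 tumours that differed were this carcinosarcoma and KB2P replicates 8 and 21.

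**Figure D5:**
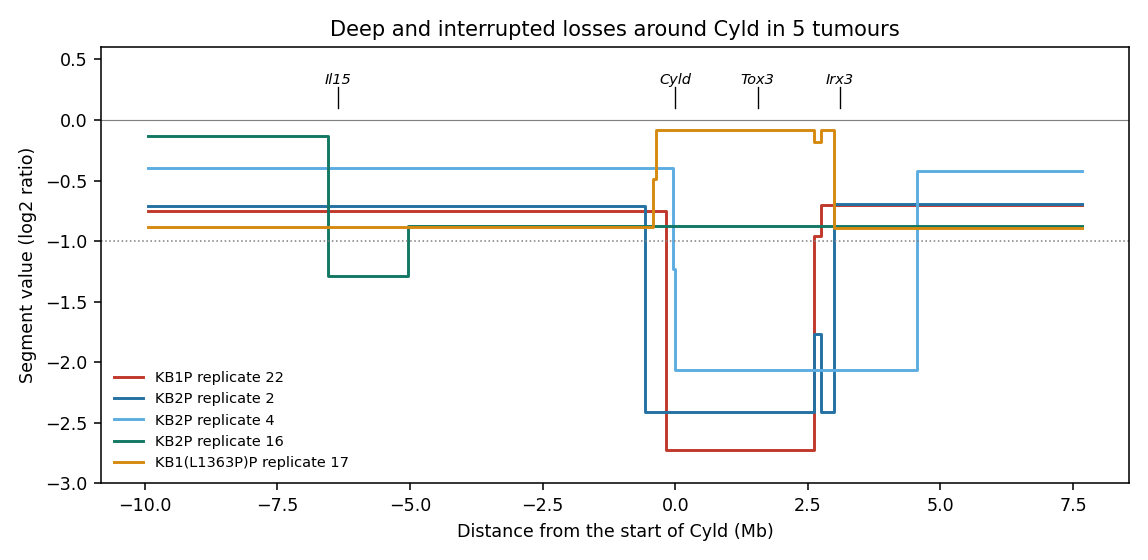
Segment values (log2 ratio, vertical axis) around Cyld in 5 tumours, against distance in Mb from the start of Cyld; the dotted line marks -1. KB1P replicate 22 and KB2P replicates 2 and 4 fall to -2.72, -2.41 and -2.07 over Cyld and Tox3, KB2P replicate 16 falls to -1.28 over Il15, and KB1(L1363P)P replicate 17 rises to -0.08 over Cyld.

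The second place was at the 28 members from Gm25267 to Dnajb1 (chr8:82152720-83612653), deep in KB2P replicates 14, 15 and 16 at -1.01, -1.06 and -1.28. Its 13 protein-coding genes include Il15, the cytokine that sustains natural killer and memory T cells, Ucp1, the uncoupling protein of brown fat, and Dnajb1. In replicates 14 and 15 the values beside it were -0.92 and -0.85, and -0.85 and -0.90, so it stood only slightly below its surroundings; in replicate 16 they were -0.14 and -0.88. Elsewhere KB1P replicate 24 reached -1.17 at 63.8 to 65.3 Mb. Over the region, 1311 of 1425 members were at -1 or lower in no tumour, and 57 were there in 2 or more.

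Narrow steps recurred at the same places, mostly in KB2P tumours. These intervals were chosen after their values were seen. From Gm4891 to Dnajb1, at 80.9 to 83.6 Mb, the median segment value was at least 0.1 below those of the 3 Mb on either side in 10 of 25 KB2P tumours, with drops of -0.14 to -0.78, in 4 of 31 KB1P tumours, with drops of -0.14 to -0.24, and in 0 of 18 KP and 0 of 24 KB1(L1363P)P tumours. From Hmgb1-rs17 to Ppp1r3b, at 33.5 to 35.4 Mb, a stretch that holds Gsr, Dusp4 and Tnks, the same held in 11 of 25 KB2P tumours, with drops of -0.16 to -0.89, and in 1 of 31 KB1P tumours. A drop is the median inside minus the mean of the medians on either side. Where the sides differ, it exceeds the fall below the lower side. The largest drops were of this kind. KB2P replicate 16 was at -1.28 against -0.14 and -0.88 at the former interval. KB2P replicate 25 was at 0.38 against 1.81 and 0.71 at the latter. A step between Gm7997 and Gm4891, at 80.9 Mb, was found in 8 tumours and one between Dnajb1 and Gipc1, at 83.6 Mb, in 6; all of these were KB2P tumours. At another interval, from Gm16204 to Msr1 at 38.1 to 39.6 Mb, such a drop was found in 2 of 24 KB1(L1363P)P tumours, of -0.20 each, and in 1 of 25 KB2P tumours, of -0.31. A step between Gm6203 and Sgcz, at 37.4 to 37.5 Mb, was found in 6 tumours, 3 of them KB1(L1363P)P, 2 KB2P and 1 KB1P. Since the KB2P libraries carry prefixes of their own, prefix and model cannot be told apart for them. The 4 KB1P tumours with a drop from Gm4891 to Dnajb1 were replicates 23, 24, 29 and 31, all titled KB1PM, a title the labels do not explain. Steps over 0.1 numbered 6.31 ± 9.37 per tumour in KB1P (SD, n = 29, median 3) and 10.5 ± 10.4 in KB2P (SD, n = 25, median 6).

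Short losses were spread over the region. Lost stretches under 30 Mb inside the region numbered 25 in 11 tumours, and at most 4 tumours overlapped, at 5 places. Those from 38.1 to 41.3 Mb and from 44.9 to 49.5 Mb were the longest; the latter starts at Fat1, an atypical cadherin.

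Genes of 7 lists were followed, and their counts went with position. Lists were chosen with earlier results of these data known, and counts are given beside those of all members, whose median was 29 of 54 KB1P and KB2P adenocarcinomas lost. The orthologues of the amplicon of human chromosome 8, of which 21 of 22 were members, lay near the border, with a median of 14. Tumour suppressors (31 of 32 measured) had a median of 29, genes of DNA repair, replication and telomeres (22) of 29.5, growth signalling (20 of 21) and immune genes (16) of 30, and oxidative stress and metal genes (9) and cadherins (6) of 32.

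Among the amplicon orthologues, gain was called more often than loss in KB1P adenocarcinomas, with loss in 5 to 7 tumours and gain in 8 to 11; in KB2P loss was called in 4 to 9 and gain in 6 to 9. Kat6a, a histone acetyltransferase, was lost in 5 and gained in 10 of 29 KB1P and lost in 5 and gained in 9 of 25 KB2P adenocarcinomas, with means of 0.13 ± 0.48 and 0.12 ± 0.47 (SD). Ikbkb, the kinase that activates NF-kappaB, and Plat, the tissue plasminogen activator, were the least lost of the list, in 5 KB1P and 4 KB2P tumours. Zfp703, a transcriptional cofactor amplified in luminal breast cancer, Erlin2, an endoplasmic reticulum protein, Brf2, a polymerase III factor, and Rab11fip1, an endosomal adaptor, were the most lost, in 7 and 8, and were gained in 9 and 6. Segment values of 1 or higher were reached in KB1P replicates 13 and 23 by most of the list, among them Adam9, Nsd3, Ash2l and Zfp703.

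Tumour suppressor genes divided by position. Cyld was lost in 18 of 29 KB1P and 15 of 25 KB2P adenocarcinomas, with values from -2.72 in KB1P and -2.41 in KB2P upward and means of -0.43 ± 0.55 and -0.56 ± 0.60 (SD). Cdh11, a mesenchymal cadherin, was lost in 18 and 15 with means of -0.34 ± 0.34 and -0.41 ± 0.30, and Zfp423, a zinc-finger regulator, and Brd7, a subunit of the PBAF remodelling complex, in 18 and 14 each. Wrn, the helicase mutated in Werner syndrome, was lost in 9 and 9 and gained in 6 and 6, with means of -0.01 ± 0.52 and 0.01 ± 0.65. Dlc1, a GTPase-activating protein, was lost in 11 and 9 and gained in 6 and 5. Wrn and Dlc1 were at 1 or higher in 3 tumours each: KB1P replicates 13 and 23 with KB2P replicate 25 for Wrn and KB2P replicate 8 for Dlc1.

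Genes of DNA repair and replication lay along the whole region. Asf1b, a histone chaperone of replication, was lost in 18 KB1P and 15 KB2P tumours. Rnaseh2a, the catalytic subunit of RNase H2, and Orc6, of the origin recognition complex, were lost in 18 and 14. Polb, the polymerase of base excision repair, was lost in 5 and 4, and Gins4, of the replicative helicase, in 5 and 5; both were gained in 10 KB1P and 9 KB2P tumours.

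Of the growth signalling genes, Mmp2, a matrix metalloproteinase gene close to Irx5, was lost in 18 and 16 tumours with means of -0.36 ± 0.33 in KB1P and -0.49 ± 0.45 in KB2P (SD). Prkaca, a catalytic subunit of protein kinase A, was lost in 18 and 15, and Junb, a subunit of AP-1, in 18 and 14, whereas Vegfc, a lymphangiogenic growth factor, was lost in 11 and 10. Among immune genes, Nod2 was lost in 18 and 15, Il15 and Calr, the endoplasmic reticulum chaperone calreticulin, in 18 and 14, and Ccl22, a chemokine of dendritic cells, in 17 and 15. Ido1 and Ido2, enzymes of tryptophan breakdown, were lost in 5 and 7 and gained in 11 and 7.

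Of the oxidative stress and metal genes, Prdx2, a peroxiredoxin, was lost in 18 and 14, and the metallothioneins Mt2, Mt3 and Mt4 in 17 and 15; Gsr, glutathione reductase, was lost in 9 and 9 and Hmox1, haem oxygenase 1, in 16 and 12. Of the 6 cadherins measured, Cdh8 and Cdh11 were lost in 18 KB1P and 15 KB2P tumours, Cdh5 and Cdh16 in 17 and 15, and Cdh13 and Cdh15 in 14 and 15.

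Differences between the models were then fitted over all 43513 genes with limma on segment values of the adenocarcinomas, with Benjamini-Hochberg adjustment over all genes and a two-sided threshold of 0.05. The comparisons with KP share its 6 tumours, and those with KB1(L1363P)P its 3. KB2P against KB1P called 0 members, where 0.138% of all genes were called. An unadjusted limma p under 0.05 was found for 0 members, against 4690 of all 43513 genes. The differences over members ran from -0.23 to 0.15 with a median of -0.07 (all genes -0.03). Without the KB1PM tumours and 1 tumour with conflicting labels, the median over members turned to 0.06, and again no member was called. The most different listed genes were Ash2l, of a histone methyltransferase complex, at -0.20 ± 0.12 (SE; limma adjusted p = 0.599), and Lzts1, a leucine zipper tumour suppressor, at 0.08 ± 0.11 (adjusted p = 0.872). On log2 ratios before segmentation, limma called 2 members lower in KB2P than in KB1P, Gm5910 and Gm33242, both by -0.48 ± 0.11 (SE; adjusted p = 0.0123), and lower than in KP, both by -0.88 ± 0.18 (adjusted p = 0.00679). They carry equal values, lie at 83.5 Mb between Gm4891 and Dnajb1, and were picked out for their values. Over all 43513 genes, limma called 229 and 66 in these comparisons.

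Against KP, the medians over members were below 0 and no member passed the test. KB1P minus KP called 0 members (1.03% of all genes), with 0 at an unadjusted p under 0.05, a median over members of -0.09 (all genes 0.06; -0.24 over members without the KB1PM tumours and the tumour with conflicting labels) and Cyld lowest of the listed genes at -0.25 ± 0.23 (SE; limma adjusted p = 0.927). KB2P minus KP called 0 members (0.0529%), with 11 at an unadjusted p under 0.05, a median of -0.17 (all genes 0.03) and Cyld at -0.37 ± 0.24 (SE; limma adjusted p = 0.939). Over all 43513 genes, 3882 for KB1P minus KP and 2897 for KB2P minus KP had an unadjusted limma p under 0.05. These contrasts were in view when the region was chosen, and nothing is read from their counts.

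The 3 KB1(L1363P)P adenocarcinomas likewise had medians below those of the other models, and no member passed. With limma, 0 members were called against KB1P, KB2P and KP, as were 0% of all genes in each. An unadjusted limma p under 0.05 was found for 132, 55 and 0 members, against 1815, 1851 and 2173 of all 43513 genes. The medians over members were -0.29, -0.20 and -0.37 (all genes -0.16, -0.14 and -0.12). The listed gene with the largest gap to KB1P was Adam9, a membrane metalloproteinase, at -0.71 ± 0.28 (SE; limma adjusted p = 0.535).

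Loss calls were also compared gene by gene. By two-sided Fisher's exact test over all genes, 0 members were called in KB1P against KP, KB2P against KP and KB2P against KB1P, as were 0% of all genes, and 0 members had an unadjusted p under 0.05 in each. Over all 43513 genes, 1167, 905 and 3217 had an unadjusted Fisher's exact p under 0.05. The smallest unadjusted Fisher's exact p over members was 0.0728, 0.0590 and 0.134, with Benjamini-Hochberg adjusted values of 0.944, 1 and 1 at the lowest. The median member was lost in 35.1, 39.3 and 1.38 percentage points more tumours of the first model, against 6.90, 8 and 0 for all genes. Without the KB1PM tumours and the tumour with conflicting labels, KB1P against KP had 432 members at an unadjusted p under 0.05 by Fisher's exact test (smallest 0.0147), 0 after adjustment (lowest 0.918), and a median difference of 50 percentage points. Over all 43513 genes, 841 had an unadjusted Fisher's exact p under 0.05 there. The region was chosen on these loss calls, so nothing is read from the counts of members. With 29 KB1P, 25 KB2P and 6 KP adenocarcinomas, a test that was not passed does not show that the models are alike. In simulated calls, 100 genes were lost in 60% of the first model and 20% of the second. Fisher's exact test called 1 of them for KB1P against KP, 0 for KB2P against KP and 13 for KB2P against KB1P. A difference of that size in genes drawn one by one was thus rarely called. Members share segments and change together, so these counts do not carry over to the region. How often such a difference over the whole region would be called was not tested.

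Within KB1(L1363P)P, 2 of the 3 adenocarcinomas were low over the region, replicates 7 and 19 with means over members of -0.77 and -0.85. Replicate 21, at -0.04, lay within the range of the 12 sarcomatoid tumours, whose means ran from -0.13 to 0.07. By their titles, replicates 7 and 19 share a number with a sarcomatoid tumour each, replicates 6 and 18, which were at 0.02 and 0.05. The contrasts of histologies were in view when the region was chosen, so the counts that follow describe the same values over again and nothing is read from them. For adenocarcinomas minus sarcomatoid tumours limma called 1421 of 1425 members, all lower, where 36.6% of all genes were called and 35.4% called lower; the median difference was -0.58 over members and -0.15 over all genes. Acd, a shelterin subunit that protects telomeres, was among the listed genes with the lowest difference, at -0.58 ± 0.15 (SE), and Pdgfrl, a candidate tumour suppressor related to a growth factor receptor, was among those with the highest, at -0.55 ± 0.10. Against the 9 carcinosarcomas, 1421 members were again called lower (29.2% of all genes called, 26.8% lower), with a median of -0.49. The 4 members not called, Gm1698, Gm24202, Gm8096 and Gm8100, lie in a gain at 1.40 in replicate 19; their values were known when they were named. Without replicate 7, 630 members were called lower against sarcomatoid tumours and 627 against carcinosarcomas, with 4 called higher in each. Over all 43513 genes, 5888 and 2892 were then called lower, and 1066 and 882 higher. Without replicate 19, 627 and 622 members were called lower and 0 higher. Over all genes, 15284 and 15131 were then called lower, and 507 and 760 higher.

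Between carcinosarcomas and sarcomatoid tumours of KB1(L1363P)P no member passed the test. By limma 0 members were called (5.21% of all genes), 0 had an unadjusted p under 0.05 (5994 of all 43513 genes), and the median difference was -0.08. In KP, adenocarcinoma minus sarcomatoid called 0 members by limma (2.99% of all genes), with a median of -0.28. An unadjusted limma p under 0.05 was found for 1177 members and for 3985 of all 43513 genes. Prefix and histology cannot be told apart there. The sarcomatoid tumours of KB1(L1363P)P and KP differed in 0 members by limma (0% of all genes), with a median of -0.08. An unadjusted limma p under 0.05 was found for 649 members and for 1226 of all 43513 genes. These groups share no prefix, so prefix and model cannot be told apart. The difference of the adenocarcinoma minus sarcomatoid effect between KB1(L1363P)P and KP was called in 225 members, all lower in KB1(L1363P)P, where 3.9% of all genes were called and 3.9% called lower. On log2 ratios before segmentation it was called in 58 members and in 935 of all 43513 genes. The KP sarcomatoid tumours in it carry a prefix that no other tumour has, so prefix cannot be told apart from this difference. The median of the difference over members was -0.29 on segment values. All 21 amplicon orthologues were among the 225, for instance Kat6a at -0.43 ± 0.12 (SE). These values too are those the region was chosen on, and nothing is read from the counts.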

How the data were processed

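Low-coverage DNA sequencing covered 3 spleens and 98 mammary tumours of mice. Per the labels' protocol, the authors aligned reads with BWA, counted them in 20 kb bins, and corrected the counts for GC content by loess and for mappability by a linear model. The protocol names a human build and the submitters' processing notes name mm10 with cutadapt 2.5, BWA 0.7.17, SAMtools 1.10 and Picard. The deposited tables give each gene's log2 ratio, its log2 segment value and a whole-number copy score. Left unstated, or not given in the sources used here, were the segmentation method, the reference level and how bins became genes. The depth per sample is unknown.

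Genes were placed by current or older symbol in RefSeq's GRCm38 annotation, where 1424 members matched by current symbol and 1 by an older one, and 10821 symbols were not placed. Coordinates are RefSeq's. A loss is a copy score below 2, a deep loss a segment value of -1 or lower, a step a change over 0.1 between neighbouring genes. Intervals are exact Clopper-Pearson at 95%. limma 3.58.1 (R 4.3.3) was fitted to the segment values of all 43513 genes and Fisher's exact test (SciPy 1.17.1) to the loss calls, both adjusted by Benjamini-Hochberg and tested on simulated data. With shuffled labels, limma for KB2P minus KB1P recovered 5% of genes shifted by 0.25 and 93% of those shifted by -0.5. Other steps used Python 3.11.15, pandas 2.3.3, NumPy 2.4.6, the R package data.table (1.17.8) and, for figures, matplotlib 3.10.9.

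The members and lists were chosen with earlier results of these data known. Genes named are those in minimal regions (all up to 10, otherwise the first, the last and listed genes), the 4 most and 2 least often lost of each list over KB1P and KB2P adenocarcinomas, the listed gene with the smallest and largest difference of a contrast, genes at -1 or lower or 1 or higher in 2 or more tumours (up to 10), those beside the border, and genes counted 5 or fewer. Alternatives were other loss thresholds (-0.2, -0.3 and -0.6), values centred on the other autosomes, unsegmented ratios (a running median over 51 genes for calls), lengths in place of gene counts, other sets of tumours and prefixes, and single tumours left out; a block for shared title numbers and the whole of chromosome 8 in the ranking were added after seeing the data.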

Additional observations from a re-analysis of the deposited data

Results flagged for a closer look

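Among 9 sets of values tested for a sample standing apart, 4 had one. In each of the 4, every other tumour of the group was at 0%, so a single value above 0 was flagged whatever its size. The usual rate of about 1 in 20 groups flagged by chance does not apply to such values, and the flags are a description. KP replicate 7 had 82.5% of the members lost, against 0% in the other 5 KP adenocarcinomas, with a gain of the genes before 20 Mb at a mean of 1.83. KP replicate 2 had 3.79% of the members gained, against 0% in the other 5. KB1(L1363P)P replicate 17 had 55.6% of the members lost, against 0% in the other 8 carcinosarcomas of its model. KP replicate 10 had 100% of the members called gained, against 0% in the other 9 KP sarcomatoid tumours; its mean segment value was 0.33 in the region and before 20 Mb alike, close to the level of a gain call.

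The adenocarcinoma minus sarcomatoid difference was compared between KB1(L1363P)P and KP by an interaction term in limma. It was called for 225 of 1425 members on segment values and for 58 on log2 ratios before segmentation, all lower in KB1(L1363P)P. Over all 43513 genes it was called for 1695 and 935. The KP sarcomatoid tumours carry a prefix that no other tumour has, so prefix cannot be told apart from this difference. The region was chosen on these segment values, so the counts are a description and support nothing.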

How the results depend on the processing

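Of 480 values recomputed under alternatives, 457 were labelled the same and 23 moved, and none turned its direction past a test. The label allowed large shifts: a share was the same inside its Clopper-Pearson interval, a mean within its SD. KP adenocarcinomas with loss, 16.7% by the calls and 50% at -0.2 or lower, counted as the same. So did the mean share lost in KB1P, 48.4% by the calls and 17.7% at -0.6 or lower. Many of the 480 were minimal regions with a single tumour left out (98 for all tumours, 54 for KB1P and KB2P adenocarcinomas). Most of these did not move, so the 457 does not measure robustness. At -0.6 or lower, at least 10% of the members were lost in 24.1% of KB1P and 32% of KB2P adenocarcinomas. With prefix 5289 alone, it was 0% of 2 KP and 100% of 2 KB1(L1363P)P adenocarcinomas. Without second tumours of a title number, 1 KB1(L1363P)P adenocarcinoma remained, at 0% with a mean share lost of 0%. Leaving out each of its 3 tumours gave 50 to 100% of tumours and mean shares of 49.6 to 99.4%. The peak of loss held 7 members at -0.2 or lower, for all tumours and for KB1P and KB2P adenocarcinomas, and 20 members at -0.6 or lower, in 24 and 20 tumours; leaving out single tumours gave 12 to 32 members in 38 to 39 tumours, and 24 to 44 members in 34 to 35. On unsegmented ratios, 2 members were called in KB2P minus KP and 2 in KB2P minus KB1P. In KB1(L1363P)P adenocarcinoma minus carcinosarcoma 821 were called, and in the interaction 58. Over all 43513 genes these counts were 66, 229, 3794 and 935. The cause of the shifts was not tested. Leaving out each KB1(L1363P)P adenocarcinoma gave 627 to 1421 members against sarcomatoid tumours and 622 to 1421 against carcinosarcomas, and 0 in each of the 3 comparisons with other models. Over all 43513 genes, the calls ran from 6954 to 15791 against sarcomatoid tumours and from 3774 to 15891 against carcinosarcomas. Replicate numbers were given in order within each group and pair no tumours, but 3 pairs of KB1(L1363P)P tumours share a title number, which the labels do not explain. With the title number as a random block, chosen after seeing the data, 1421 members were called against sarcomatoid tumours and 1421 against carcinosarcomas. For carcinosarcoma minus sarcomatoid 0 were called, and in the interaction 225. Over all 43513 genes these counts were 15695, 12656, 2268 and 1695. The consensus correlations were 0.10 and -0.02, and so few pairs estimate this correlation poorly. The share of tumour cells in a sample is not labelled, and the depth behind each value is unknown.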

Other observations

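High gains inside the region, at a segment value of 1 or higher, were found at 394 of the 1425 members in 2 or more tumours. Among the listed genes, such tumours were KB1P replicates 13 and 23 for Gsr and Tnks, KB1P replicate 25 and KB2P replicate 6 for Vegfc and Klf2, and KB1P replicate 29 and KB2P replicate 13 for Ing2. KB1P replicate 29 reached 2.24 and KB2P replicate 8 reached 2.54 while losing 29.7% and 39.7% of the members. KB2P replicate 25 carried 38 steps over 0.1, with 7.93% of the members lost and 49.0% gained, and KB2P replicate 6 carried 39, with 0% lost and 38.9% gained. KB2P replicates 10 and 12 had autosomal segment values that correlated at a Pearson r of 0.9855 across genes, and both had 96.3% of the region lost from 24.4 Mb.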
